A study of Mus musculus with 7 samples.

Results

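Chromatin accessibility was examined at the loci of 6 genes that serve blood platelet and red cell formation, namely Gfi1b, Nfe2, Klf1, Itga2b, Pf4 and Ppbp, in haematopoietic stem cells of aged mice carrying a Runx3 or a control lentivirus. The loci were taken as 5 windows of the mm9 genome around these genes, Pf4 and Ppbp sharing 1 window, and every peak whose midpoint fell inside a window was a member. This gave 50 peaks of 98723 in the whole table. Itga2b (chr11:102290000-102350000) held 16, Gfi1b (chr2:28430000-28510000) held 14, Pf4-Ppbp (chr5:91170000-91240000) held 8, Klf1 (chr8:87405000-87450000) held 7 and Nfe2 (chr15:103050000-103110000) held 5. Peaks are numbered in order along each window.

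Both groups came from C57BL/6 donors aged 24 months, whose cKit-enriched marrow was infected with a control lentivirus (Control) or with a lentivirus expressing the transcription factor Runx3 (Runx3) and given to lethally irradiated recipients. After 16 weeks, transduced donor stem cells (LSK, Flt3-, CD48-, CD150+, CD45.2+, hCD2+) were sorted and profiled by Omni-ATAC-seq, an assay that counts transposase insertions into accessible DNA. There were 4 Control libraries, numbered 1 to 4, and 3 Runx3 libraries, numbered 1, 3 and 4. All had undergone infection, transplantation and the same sort, so no untransduced or untransplanted cells enter the comparison. Whether each library is a separate recipient or donor, or a pool, is not stated in the labels, and the p-values reflect only the spread among these libraries, part of which may be technical.

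Megakaryocytes, which shed platelets, and erythroid cells, which become red cells, descend from a shared progenitor below the stem cell. Gfi1b is a zinc-finger repressor required in both lineages, Nfe2 encodes the p45 subunit of a bZIP factor needed for platelet release, and Klf1 is the zinc-finger activator of erythroid genes. Itga2b encodes CD41, the integrin chain of the platelet fibrinogen receptor, and Pf4 and Ppbp encode chemokines stored in platelet granules. CD41 and other platelet genes are also known in a platelet-biased portion of stem cells, and that portion is known to grow with age.

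Runx factors bind DNA at TGTGGT. Factors of the GATA family, which drive the megakaryocyte and erythroid lineages, bind at AGATAA and also at the letters TGATAA, and ETS factors such as Fli1 bind at AGGAAG and also at the letters CGGAAG. The 250 bases before the gene start are shown for the 3 genes with the most such matches or with a GATA match, as RefSeq gives them in the GRCm38.p6 build. Capitals mark matches to these 3 motifs on either strand.
Klf1, chr8:84901732-84901981, plus strand: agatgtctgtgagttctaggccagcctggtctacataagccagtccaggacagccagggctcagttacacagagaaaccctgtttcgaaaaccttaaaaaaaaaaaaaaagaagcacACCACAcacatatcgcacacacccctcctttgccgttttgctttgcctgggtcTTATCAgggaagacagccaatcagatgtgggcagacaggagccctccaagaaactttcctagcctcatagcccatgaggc
Gfi1b, chr2:28621983-28622232, minus strand: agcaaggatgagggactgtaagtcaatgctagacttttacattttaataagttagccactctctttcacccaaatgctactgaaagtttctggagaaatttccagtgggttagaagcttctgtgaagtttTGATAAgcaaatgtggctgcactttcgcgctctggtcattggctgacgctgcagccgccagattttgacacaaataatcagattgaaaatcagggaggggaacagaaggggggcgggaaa
Itga2b, chr11:102469884-102470133, minus strand: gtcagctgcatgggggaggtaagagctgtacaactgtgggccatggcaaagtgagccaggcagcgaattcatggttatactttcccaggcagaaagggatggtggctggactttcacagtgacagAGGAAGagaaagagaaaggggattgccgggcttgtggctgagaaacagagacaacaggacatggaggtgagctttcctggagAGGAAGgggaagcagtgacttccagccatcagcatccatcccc
The Klf1 sequence holds 1 RUNX match (ACCACA, the reverse strand of TGTGGT) and 1 GATA match (TTATCA). The Gfi1b sequence holds 1 GATA match (TGATAA), and the Itga2b sequence holds 2 ETS matches (AGGAAG). Pf4 has 1 ETS match, CTTCCT, ending 4 bases before its start, and Ppbp has none of the 3 motifs. Of 32851 promoter sequences of this length, 14.05% hold the RUNX motif, 16.6% the GATA motif and 39.21% the ETS motif. The CACCC box, CCNCNCCC on either strand, matches at 2 places before Gfi1b and 1 before Itga2b, and in 45.93% of all. The letters TGAGTCA, searched as a short core for NF-E2, match before none of the 5 genes and in 4.463% of all, and no listed match overlaps another. Nfe2 is not in the promoter table. A match is a description of the letters, and absence of a match says nothing of a factor's binding. The peaks are in mm9, so no peak was placed on these bases, and which peak covers a gene start was not analysed here. The windows may also take in neighbouring genes, whose positions in mm9 were not checked. By gene order in another build, Itga2b lies between Fam171a2 and Gpatch8, and Gfi1b between Gtf3c5 and Tsc1. Nfe2 lies between Hnrnpa1 and Copz1, Klf1 between Gcdh and Dnase2a, and Ppbp and Pf4 between Cxcl5 and Cxcl3. A peak is therefore assigned to a window and not to a gene.

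Total counts in all peaks were 2188113 to 3758422 in Control libraries and 1738164 to 2576715 in Runx3 libraries. The 50 member peaks took 1992 to 3168 reads in Control libraries and 1441 to 2145 in Runx3 libraries, or 0.0837% to 0.0910% and 0.0829% to 0.0852% of the counts. Control 1 differed most from its own group (chi-square per degree of freedom up to 2.25 against another Control, with 1.41 at most between the other Controls). Control 1, Control 2 and Runx3 1 also had in common a group of peaks with few reads in the other 4 libraries, and are called set 1 below, the others set 2. Neither set follows the vector, but within each vector set 1 had the lower total counts. In Control these were 2188113 and 2799286 against 3709974 and 3758422, and in Runx3 1738164 against 2576715 and 2401700. Set and depth can therefore not be told apart within a vector. Values within each set are given for the peaks with an unadjusted p under 0.05 and for the summed levels.

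All 5 windows held peaks. Members were picked as peaks, so that they are open is no result, and only their levels are compared below. Levels are given as CPM, the counts brought to a common library size by TMM, or, to compare peaks, in CPM per kb of peak width. Of the 50 members, 35 lay above the median level per kb of all peaks, and 14 lay in the top 10%. The median member had 20.7 CPM per kb in Control libraries, where the median of all peaks was 11.7, and the range was 4.73 to 92.1. Members were also wider, with a median of 467 bases against 388 for all peaks, and closer together, with a median of 4.87 kb between midpoints against 8.61 kb. The windows were drawn around genes, and these figures have no test.

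The most open members were in the Nfe2 window. Nfe2 peak 5 (chr15:103102866-103103526) had 92.1 CPM per kb and Nfe2 peak 3 (chr15:103088253-103089244) 90.4, both above the 99th percentile of all peaks (99.7 and 99.6). Itga2b peak 12 (chr11:102328216-102328994) followed with 76.4 CPM per kb. Klf1 peak 2 (chr8:87417380-87418091) had 66.2, Pf4-Ppbp peak 1 (chr5:91171002-91171591) 64.9 and Klf1 peak 5 (chr8:87432315-87433106) 62.4. The Gfi1b window had no member of this height, and its most open peak per kb, Gfi1b peak 1 (chr2:28438105-28438962), had 39.8 CPM per kb. Its widest member, Gfi1b peak 5 (chr2:28453289-28455249), spans 1960 bases, wider than 99.7% of all peaks. That peak alone gave 31.1% of the CPM summed over its window.

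**Figure D1:**
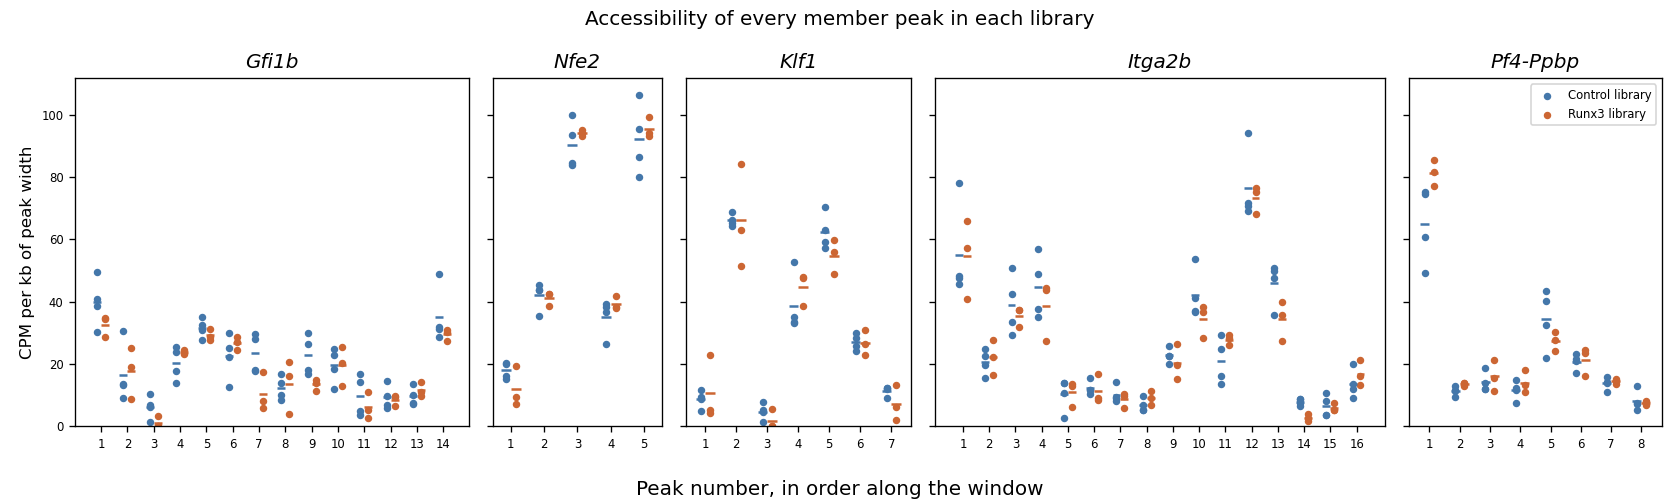
Accessibility in CPM per kb of peak width (y axis) of every member peak, in order along each of the 5 windows (x axis). Points are libraries, Control in blue and Runx3 in orange, and short lines are group means. Nfe2 peaks 3 and 5 have Control means of 90.4 and 92.1 CPM per kb, while 12 members had too few reads to be tested.

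Summed over all peaks of a window and divided by their total width, the order of the loci in Control libraries was Nfe2 with 63.3 ± 2.88 CPM per kb, Klf1 with 39.1 ± 3.08, Itga2b with 32.1 ± 3.38, Gfi1b with 25.2 ± 3.61 and Pf4-Ppbp with 22.7 ± 2.82 (SD, n = 4). Nfe2 was above Klf1, Klf1 above Itga2b and Itga2b above Gfi1b in each of the 4 Control and 3 Runx3 libraries. In Control libraries Gfi1b and Pf4-Ppbp did not differ beyond their spread, and Gfi1b was the higher in 2 of 4. In the Runx3 libraries Pf4-Ppbp was the higher of the pair, with 23.9 ± 1.06 CPM per kb against 22.2 ± 0.547 for Gfi1b (SD, n = 3), and their values did not overlap. Nfe2 reached its level with few peaks, since 5.20% of its window was covered by peaks, whereas peaks covered 13.4% of the Itga2b window.

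The summed level of each locus was close between the vectors. For Nfe2 it was 205, 204, 185 and 196 CPM in Control libraries 1 to 4 and 204, 202 and 203 CPM in Runx3 libraries 1, 3 and 4, a log2 difference of 0.04 (Runx3 minus Control). For Klf1 the Control libraries had 184, 159, 157 and 158 CPM and the Runx3 libraries 162, 151 and 175 CPM, a log2 difference of -0.016. In both loci the groups overlapped.

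Itga2b had 298, 244, 241 and 247 CPM in Control libraries and 236, 242 and 233 CPM in Runx3 libraries, a log2 difference of -0.11. Gfi1b had 239, 200.2, 185 and 173 CPM against 170.3, 177 and 178, a log2 difference of -0.17. Pf4-Ppbp had 103, 126, 135 and 137 CPM against 127, 133 and 138, a log2 difference of 0.09. Groups overlapped in these loci too. Control 1 was the highest Control library for Itga2b, Gfi1b, Klf1 and Nfe2 and the lowest for Pf4-Ppbp. Without it the log2 differences were -0.041 for Itga2b, -0.084 for Gfi1b, -0.0040 for Pf4-Ppbp, 0.06 for Nfe2 and 0.04 for Klf1. The log2 ratio of mean summed levels within set 1 and within set 2 was -0.37 and -0.010 for Gfi1b, -0.20 and -0.038 for Itga2b, 0.14 and -0.0082 for Pf4-Ppbp, -0.0024 and 0.09 for Nfe2, and -0.085 and 0.05 for Klf1. The Gfi1b and Itga2b differences thus lay mostly in set 1, which holds Control 1. Over all libraries the difference was under 1 SD of the Control libraries on the log2 scale in each locus (SD 0.07 to 0.20). That SD includes Control 1, which widens it at Itga2b and Klf1, where the other Controls had 241 to 247 and 157 to 159 CPM. The differences without Control 1 were not set against an SD. The summed levels are descriptions and carry no test. In bulk samples, fewer cells with an open site and less opening per cell cannot be told apart.

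**Figure D2:**
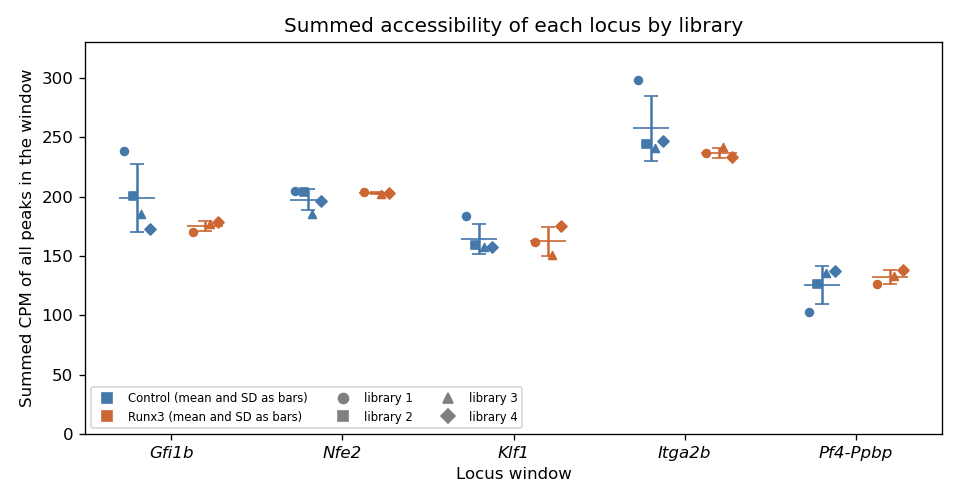
Summed CPM of all peaks in each window (y axis) for the 5 loci (x axis), Control in blue and Runx3 in orange. Symbols give the library number and bars the mean and SD. The circle of Control 1 stands at 298 CPM for Itga2b, where the other Control libraries have 241 to 247.

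No member peak passed the test for a difference by vector. Of the 50 peaks, 38 passed the low-count filter and were tested in the fit of all 57504 tested peaks, and 0 had an adjusted p under 0.05 (edgeR quasi-likelihood test; smallest adjusted p 0.39), where 0.0730% of all tested peaks did. DESeq2 and limma-voom also called 0 members. At an unadjusted p under 0.05 there were 4 members in edgeR, 1 higher and 3 lower with Runx3. That is 10.5% of the 38, beside 8.31% of all tested peaks (3.91% higher and 4.40% lower), and so near the background. DESeq2, in which all 50 members were tested, gave 0 higher and 3 lower, beside 3.25% of all its tested peaks in either direction. With limma-voom it was 1 and 2 of the 38, beside 7.93%. The Runx3 and Control libraries did not overlap in 2 of the 38, beside 8.94% of all tested peaks. The median log2 fold change was 0.05 over the 38 and -0.0078 over all tested peaks, with 22 of the 38 (57.9%) above 0, beside 48.8% of all tested peaks.

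The data bound the size of a difference better at some members than at others. The 95% interval of the log2 fold change lay inside a 2-fold change either way for 30 of the 38 and inside a 1.5-fold change for 17. Over all 57504 tested peaks these counts were 43509 and 18217. For the other 8 members the interval reached past 2-fold, so a difference of that size could have been missed at this depth.

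**Figure D3:**
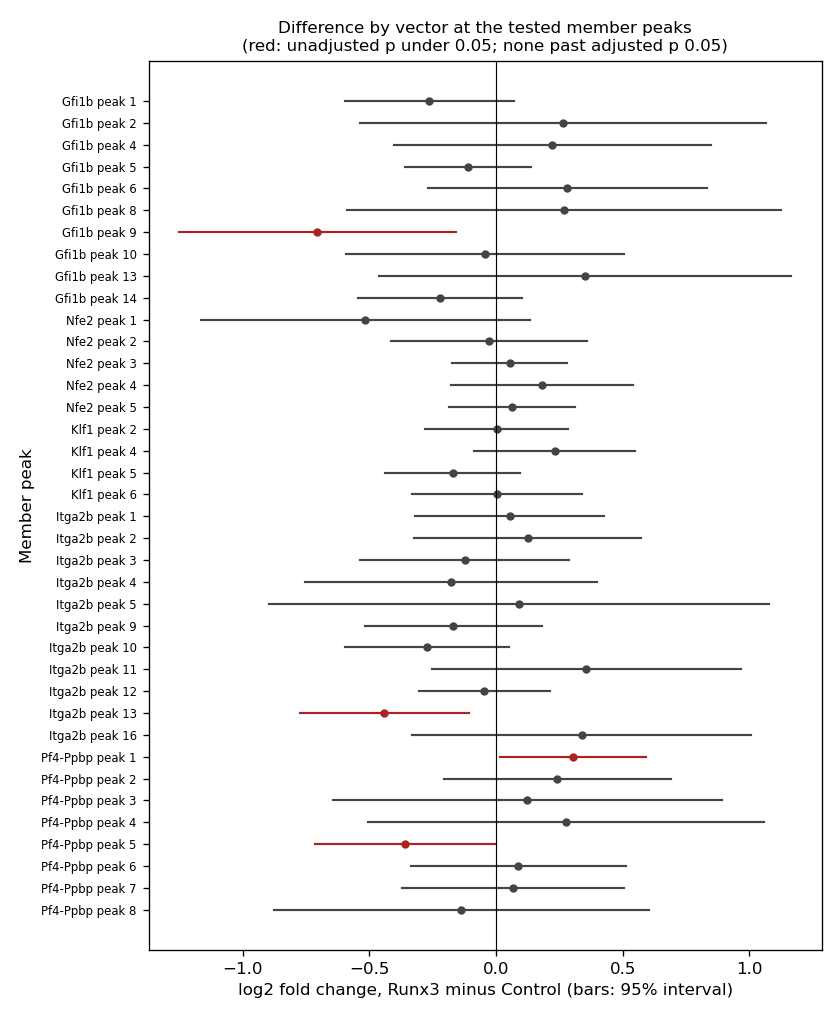
Log2 fold change, Runx3 minus Control (x axis), of the 38 tested member peaks (y axis), with 95% intervals from edgeR as bars. The 4 peaks with an unadjusted p under 0.05 are in red, and Gfi1b peak 9 has the lowest value, -0.70.

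Among the transcription factor loci, Gfi1b held the member with the lowest log2 fold change. Gfi1b peak 9 (chr2:28477241-28477785) had 14.5, 16.4, 9.90 and 9.20 CPM in Control libraries 1 to 4 and 6.24, 7.59 and 8.17 CPM in Runx3 libraries 1, 3 and 4. All Runx3 libraries lay below all Control libraries, and Control 4 and Runx3 4 were close. The means were 12.5 ± 3.48 CPM (SD, n = 4) and 7.33 ± 0.991 CPM (SD, n = 3). The log2 fold change was -0.70 ± 0.27 (SE; edgeR unadjusted p = 0.013, adjusted p = 0.41). Within set 1 the log2 ratio of means was -1.24 and within set 2 it was -0.26, so the larger difference was among Control 1, Control 2 and Runx3 1. With the log2 total count as a covariate the log2 fold change was -1.0 (edgeR adjusted p = 0.23).

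The neighbour of this peak had nearly equal group means, but the 95% intervals of the log2 fold changes overlapped (-1.25 to -0.16 for peak 9, -0.59 to 0.50 for peak 10). Gfi1b peak 10 (chr2:28477844-28478359) starts 59 bases after peak 9 ends and had 10.1 ± 2.93 CPM in Control and 10.1 ± 3.19 CPM in Runx3 libraries, a log2 fold change of -0.045 ± 0.27 (SE). Of the reads of both peaks, peak 9 took 54.9%, 72.4%, 43.6% and 49.2% in Control libraries and 32.3%, 52.9% and 43.9% in Runx3 libraries. The exact 95% binomial interval was 16.7% to 51.4% in Runx3 1, which had the lowest share, and 59.1% to 83.3% in Control 2, which had the highest. The interval of Control 2 also lay above that of Control 3 (32.4% to 55.3%), a library of its own group. Leaving aside Control 2 and Runx3 1, the intervals of the libraries all overlapped one another, and the shares of the groups overlapped. Peak 10 was singled out after its values were seen.

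The 3 most open Gfi1b peaks per kb had smaller differences. Peak 1 had 42.3, 35.1, 25.9 and 33.1 CPM in Control and 29.9, 29.5 and 24.5 CPM in Runx3 libraries, a log2 fold change of -0.26 with a 95% interval of -0.60 to 0.07. Gfi1b peak 5 had 60.9, 63.9, 68.7 and 54.1 CPM against 56.1, 61.1 and 54.5, and its interval of -0.36 to 0.14 excludes a change of 1.5-fold. Peak 14 (chr2:28496258-28497406) had 56.3, 36.6, 32.9 and 35.9 CPM against 34.9, 31.6 and 35.4. Control 1 alone stood above the rest there, and the log2 fold change of -0.22 was -0.049 without it. In these 3 peaks the groups overlapped. Of the 10 tested Gfi1b peaks, 5 had a log2 fold change above 0 and 5 below.

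Nfe2 had the steadiest values of the 5 loci. Nfe2 peak 3 had 83.6, 92.7, 83.2 and 98.9 CPM in Control libraries and 94.2, 92.3 and 93.5 CPM in Runx3 libraries. The Runx3 libraries lay within the range of the Controls, and the log2 fold change was 0.05 with a 95% interval of -0.17 to 0.28. Peak 5 had 70.2, 63.1, 57.0 and 52.9 CPM against 65.5, 61.6 and 62.2, with 0.06 and an interval of -0.18 to 0.31. Peak 2 (chr15:103085613-103086039) had 18.6, 18.7, 15.1 and 19.3 CPM against 18.1, 16.4 and 18.2, with -0.027 and an interval of -0.41 to 0.36. Differences beyond 1.5-fold lie outside all 3 intervals. The lowest log2 fold change in the window was -0.52, at the weakest of its 5 peaks, Nfe2 peak 1 (chr15:103078584-103079020), with an interval of -1.17 to 0.13.

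The Klf1 window had 4 tested peaks with log2 fold changes of -0.17 to 0.23. Klf1 peak 2, its most open per kb, had 46.5, 47.1, 45.7 and 48.9 CPM in Control libraries and 44.9, 36.7 and 59.9 CPM in Runx3 libraries. The Control libraries were close together and the Runx3 libraries lay on both sides of them, giving a log2 fold change of 0.0024 with an interval of -0.28 to 0.29. Klf1 peak 5 had 55.8, 45.2, 49.8 and 46.9 CPM against 38.7, 44.3 and 47.2, with -0.17 and an interval of -0.44 to 0.10.

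Klf1 peak 4 (chr8:87426728-87427626) depended on Control 1. It had 47.5 CPM there, 31.5, 29.7 and 30.2 CPM in the other Controls, and 43.0, 34.6 and 42.7 CPM in the Runx3 libraries. Its log2 fold change was 0.23 ± 0.16 (SE; edgeR adjusted p = 0.76), and without Control 1 it was 0.39 (edgeR adjusted p = 0.21), with every Runx3 library then above every Control. With the log2 total count as a covariate it was -0.076, so its direction was not fixed.

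At Itga2b, the platelet integrin gene, the member with the smallest p was lower with Runx3 and did not pass. Itga2b peak 13 (chr11:102331062-102331810) had 26.8, 37.4, 38.1 and 35.7 CPM in Control libraries and 26.8, 29.9 and 20.4 CPM in Runx3 libraries. Control 1 lay among the Runx3 libraries and the other 3 Controls lay above them. The means were 34.5 ± 5.21 CPM (SD, n = 4) and 25.7 ± 4.85 CPM (SD, n = 3). The log2 fold change was -0.44 ± 0.16 (SE; edgeR unadjusted p = 0.011, adjusted p = 0.39). Without Control 1 it was -0.52 (edgeR adjusted p = 0.088) and without Runx3 4 it was -0.29 (adjusted p = 0.89). With the log2 total count as a covariate it was -0.27 (adjusted p = 0.69). The log2 ratio of means was -0.26 within set 1 and -0.54 within set 2.

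The other named Itga2b peaks were closer between the groups. Itga2b peak 12, the most open of the window, had 73.3, 54.9, 53.8 and 55.8 CPM in Control libraries and 58.6, 53.1 and 59.5 CPM in Runx3 libraries, a log2 fold change of -0.046 with a 95% interval of -0.30 to 0.21. Peak 1 (chr11:102291428-102291930) had 39.2, 23.0, 23.9 and 24.2 CPM against 20.6, 28.7 and 33.1, with 0.05 and an interval of -0.32 to 0.43. In both peaks Control 1 stood above the other Controls, while it was the lowest Control in peak 13. Of the 11 tested Itga2b peaks, 5 had a log2 fold change above 0 and 6 below, from -0.44 to 0.36.

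The Pf4-Ppbp window, with the platelet chemokine genes, held 2 members with an unadjusted p under 0.05, of opposite sign. Pf4-Ppbp peak 1 had 28.9, 35.8, 44.2 and 44.0 CPM in Control libraries and 45.5, 48.1 and 50.4 CPM in Runx3 libraries. All Runx3 libraries lay above all Controls, with Runx3 1 close to Control 3. The log2 fold change was 0.30 ± 0.14 (SE; edgeR unadjusted p = 0.038, adjusted p = 0.56). It was 0.21 without Control 1 and 0.59 with the log2 total count as a covariate (edgeR adjusted p = 0.55 and 0.15). The log2 ratio of means was 0.49 within set 1 and 0.16 within set 2. The peak lies less than 10 kb from the edge of the window.

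Pf4-Ppbp peak 5 (chr5:91200851-91201836) had 21.7, 31.9, 39.6 and 42.8 CPM in Control libraries and 23.7, 27.4 and 30.0 CPM in Runx3 libraries. Control 1 was below all Runx3 libraries and the other 3 Controls were above them. The log2 fold change was -0.36 ± 0.18 (SE; edgeR unadjusted p = 0.0497, adjusted p = 0.60), and it was -0.50 without Control 1 (adjusted p = 0.10). Within set 1 the log2 ratio of means was -0.17 and within set 2 it was -0.52. With the log2 total count as a covariate the log2 fold change was 0.11, on the other side of 0. Among the Controls its level was higher in libraries with a larger total count, and the part of depth in the difference was not tested. Peak 6 (chr5:91214597-91215333) had 17.0, 16.0, 12.5 and 15.5 CPM against 11.9, 18.1 and 17.2, with a log2 fold change of 0.09 and an interval of -0.33 to 0.51. Of the 8 peaks, 6 had a log2 fold change above 0 and 2 below.

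**Figure D4:**
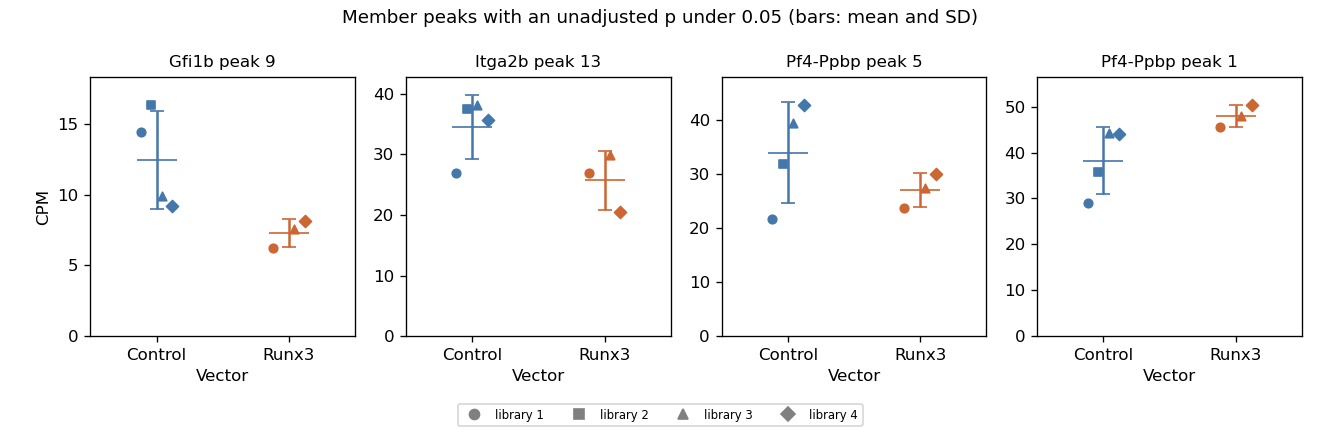
CPM in each library (y axis) by vector (x axis) of the 4 member peaks with an unadjusted p under 0.05. Symbols give the library number and bars the mean and SD. Runx3 and Control libraries are apart in Gfi1b peak 9 and Pf4-Ppbp peak 1, while Control 1 lies among or below the Runx3 libraries in Itga2b peak 13 and Pf4-Ppbp peak 5.

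The 12 members left out by the low-count filter had few reads and were mostly narrow, with a median width of 265 bases. Per kb of width they had 4.73 to 23.4 CPM in Control libraries, so some stood above the lowest tested members, which began at 8.19. They were 209 to 447 bases wide, had 1.06 to 4.89 CPM in Control libraries and held 14 to 67 reads each over all libraries. They were 5 in the Itga2b window, 4 in the Gfi1b window and 3 in the Klf1 window. Fitted without the filter, 2 of the 12, both of Gfi1b, had an unadjusted p under 0.05 and neither passed. In that fit 7.96% of all 98723 peaks, of every depth, had such a p. Gfi1b peak 7 (chr2:28462599-28462808) had 12, 15, 13 and 13 reads in Control and 2, 4 and 8 in Runx3 libraries (log2 fold change -1.05 ± 0.44, SE; edgeR adjusted p = 0.51). Gfi1b peak 3 (chr2:28446995-28447371) had 5, 10, 8 and 2 reads against 0, 3 and 0, and its size cannot be fixed from so few reads (edgeR adjusted p = 0.46). These peaks were singled out after their values were seen.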

How the data were processed

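The authors deposited unnormalized read counts for each peak in 7 libraries. The submitters' processing notes name the mm9 build and, as tools, MACS2, Bowtie2, Picard, SAMtools, FastQC and Trim Galore. Tool versions and roles, the making of the common peak list and a transposase offset of reads are each not given in the sources used here. Peak positions are printed as deposited, and whether starts count from 0 or 1 is not stated.

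Counts were tested with edgeR 4.0.16 (R 4.3.3) on all 7 libraries by vector. The steps were filterByExpr (minimum count 10, minimum total 15), TMM, a robust quasi-likelihood fit and Benjamini-Hochberg adjustment over all 57504 tested peaks with a threshold of 0.05. SEs of log2 fold changes are approximate, computed as the absolute value over the root of the F statistic. Adjusted p-values of the alternatives came from edgeR, DESeq2 1.42.0 or limma-voom (limma 3.58.1). The fit was tested on simulated data. In these libraries 3 reads equal 0.863 to 1.87 CPM. Intervals of shares reflect counting error alone, and those of fold changes the spread among libraries as the fit estimates it. Library sets are the split of the libraries with the most peaks at least 8-fold apart with 0.5 CPM added (57 peaks). The log2 ratios of peaks within sets use the same 0.5.

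Named peaks were, per locus, those with an unadjusted p under 0.05 and the 3 highest per kb in Control libraries. Members, lists and sets were chosen with earlier results of these data known. Promoter sequences were matched by symbol for 5 of 6 genes. Markers of the sorted cells and other lineage genes were not analysed here, as no mm9 annotation was used.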

Additional observations from a re-analysis of the deposited data

Results flagged for a closer look

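Among the 4 Control libraries, 7 of 21 values examined (16 named peaks and 5 summed levels) had 1 library far from the rest, by a gap that took most of the range (Dixon's criterion for 4 values). Chance flags about 1 in 20, and the values are not independent. In 6 of the 7 the library was Control 1, as the highest of the Controls. It had 39.2 CPM at Itga2b peak 1, 73.3 CPM at Itga2b peak 12, 56.3 CPM at Gfi1b peak 14 and 47.5 CPM at Klf1 peak 4. Its summed level was 298 CPM at Itga2b and 184 CPM at Klf1. The remaining value was that of Control 3 at Nfe2 peak 2, with 15.1 CPM as the lowest Control. Over the 38 tested members Control 1 was the highest Control library in 17 and the lowest in 5.

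Klf1 peak 1 (chr8:87405804-87406131), a peak below the low-count filter, had 12 reads in Runx3 1, or 7.49 CPM. The Control libraries had 6, 4, 13 and 10 reads, at most 3.78 CPM, and Runx3 3 and Runx3 4 had 4 and 3 reads. The signal was in 1 of 3 Runx3 libraries, and without the filter the peak had a log2 fold change of 0.12 (edgeR adjusted p = 0.98).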

How the results depend on the processing

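No member passed an adjusted p under 0.05 in any of the 18 alternatives in which members were tested. The number of members lower at an unadjusted p under 0.05 was 3 and became 5 without the low-count filter, where 50 members were tested. It was 4 with the log2 total count as a covariate and 2 to 3 when 1 library was left out. The number fell to 2 with RLE in place of TMM, with no scaling beyond the total count and with a mean count of 20 or more. Without robust estimation, with limma-voom and with the replicate block it was also 2. The 1 higher member became 0 with DESeq2, with the replicate block, with the library set as a term and with windows narrowed by 10 kb. It became 2 with the log2 total count as a covariate, and 0 to 1 when 1 library was left out. The share of all tested peaks with such a p, in either direction, also moved. It was 7.96% without the filter and 9.96% with the covariate, and ran from 3.25% with DESeq2 to 10.8% without Control 1.

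Over all peaks, 19 were called higher and 23 lower. Without the filter 41 were higher. Requiring a mean count of 20 or more gave 6 and 11, no robust estimation 8 and 10, DESeq2 2 and 1, limma-voom 5 and 0, and the covariate 33 and 51. Leaving out 1 library gave 0 to 73 higher and 0 to 194 lower, the lowest when Control 2 or Runx3 1 was dropped and the highest when Control 1 was. The cause was not tested.

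Some of the 16 named peaks, none of them called, changed sign. Klf1 peak 2 went to -0.0085 without the filter, -0.0078 with DESeq2, -0.028 with limma-voom, -0.0079 with the replicate block and -0.0048 with the set term. With the covariate Itga2b peak 1 was -0.099, Pf4-Ppbp peak 5 was 0.11, Nfe2 peak 5 was -0.11 and Klf1 peak 4 was -0.076. When 1 library was left out, values ran from -0.098 to 0.24 for Itga2b peak 1, -0.088 to 0.053 for Itga2b peak 12, -0.22 to 0.17 for Klf1 peak 2, -0.026 to 0.23 for Pf4-Ppbp peak 6 and -0.11 to 0.022 for Nfe2 peak 2. The log2 differences of the summed levels moved by less than 1 SD in all 55 values, but some changed sign. Pf4-Ppbp went from 0.09 to -0.037 with windows narrowed by 10 kb and to -0.0040 without Control 1. Klf1 went from -0.016 to 0.039 without Control 1 and to 0.036 without Runx3 3. Itga2b, Gfi1b and Nfe2 kept their sign.

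With the replicate number as a block 30 and 71 peaks were called, and 0 members. Libraries of 1 number deviated together only weakly (r = 0.13, 0.11 and 0.07 for numbers 1, 3 and 4). For each Runx3 library the Control of its own number still had the highest r of the Controls. The next highest was 0.10 for Runx3 1, 0.10 for Runx3 3 and 0.03 for Runx3 4. Seen from the Controls, Control 4 correlated better with Runx3 3 (r = 0.10) than with Runx3 4. The labels state no pairing and the number was not taken as one, but these values do not settle whether the libraries were paired. No Runx3 library carries the number 2.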
